A study of Mus musculus with 12 samples.

Results

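The 10 genes described here encode receptor chains through which group 2 innate lymphoid cells (ILC2s) sense cytokines other than IL-33. They are the common gamma chain Il2rg, its partners Il2ra, Il2rb, Il7r, Il4ra and Il9r, the TSLP receptor chain Crlf2, the IL-25 receptor chains Il17rb and Il17ra, and the stem cell factor receptor Kit. The genes were listed by name, transcript values were summed per gene, and all 10 of them were found among the 29542 genes of the annotation. All 10 passed the filter on low counts.

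The RNA came from ILC2s sorted from skin-draining lymph nodes of mixed bone marrow chimeras on the C57BL6 strain. Recipients were CD45.1 congenic mice given 950 cGy of irradiation, followed by equal parts of marrow from CD45.2 Rag1-/- donors and CD90.1 WT donors. Every chimera was then treated with recombinant mouse IL-33 on each of 7 days, at 30 ng in the skin of each cheek and 240 ng into the peritoneum, so no group lacks IL-33. The 12 libraries form 4 groups of 3, namely Rag1 knockout-labelled cells (congenic marker CD90.2) at 20 weeks after transplant, WT cells (CD90.1) at 20 weeks, knockout-labelled cells at 8 weeks and WT cells at 8 weeks. The series text gives a different later time from the sample labels, whose 20 weeks are used here. The ages of the mice are not stated, nor is it stated that each library is from another animal, and p-values therefore cover only the variation among these libraries, which may be technical. Genotype goes with the congenic marker, and time after transplant goes with any harvest or sequencing batch, so neither pair can be told apart. In bulk RNA, fewer cells of a type and less RNA per cell cannot be told apart either.

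As background, IL-2, IL-4, IL-7 and IL-9 each bind a receptor that joins the common gamma chain to a partner chain or chains. The complex signals through JAK1 and JAK3 to STAT proteins, mainly STAT5 and, for IL-4, STAT6. TSLP, an epithelial alarmin, uses Crlf2 together with the IL-7 receptor alpha chain and does not need the gamma chain. IL-25 binds a complex of Il17rb and Il17ra that signals through the adaptor Act1, and Kit is a receptor tyrosine kinase for stem cell factor. In mice, IL-7 is needed for ILC2 development, IL-2 and IL-9 support the survival of mature cells, and IL-25 and TSLP activate them beside IL-33.

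Summed estimated reads were 11433625 to 32529806 per library. The label check gave a mixed answer. Rag1 was at 0 to 0.176 TPM in the 6 knockout-labelled libraries, above 0 in 5 of them, and was listed at 0 in all 6 WT libraries, so the knockout could not be read from Rag1 itself and the groups are called knockout-labelled. Thy1, the gene of the congenic CD90 marker, was at 11.5 to 29.4 TPM in the knockout-labelled libraries and 1.89 to 4.14 TPM in the WT libraries, with no overlap. The summed level of 10 ILC2 markers was 1928 to 3229 TPM. Marker sums of other cells were lower, at 42.5 to 116 TPM for 8 T cell genes, 74.9 to 207 TPM for 6 B cell genes, mostly Cd79b at 70.7 to 174 TPM, and 48.9 to 317 TPM for 6 NK and ILC1 genes. Knockout-labelled replicate 3 of 8 weeks had 24.5% of its reads in its 10 most abundant genes and WT replicate 2 of 8 weeks had 15.0%, against 8.85% to 11.3% in the other libraries. These are called below the libraries that stand apart.

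The receptor chains spanned a wide range of abundance, and the shared gamma chain exceeded its partners by far. TPM scales reads by transcript length and by library and was used wherever levels of different genes are compared. Il2rg (ENSMUSG00000031304, X:101264378-101268255 on GRCm38, minus strand) averaged 2838 ± 537 TPM in knockout-labelled cells at 20 weeks, 2452 ± 269 TPM in WT at 20 weeks, 2482 ± 456 TPM in knockout-labelled cells at 8 weeks and 2885 ± 595 TPM in WT at 8 weeks (SD, n = 3 each). It made up 75.4% to 88.2% of the TPM summed over the 10 genes in a library. Among 4 of its partners, the TPM ratio of Il2rg to the partner was 5.90 to 24.4 for Il7r, 22.3 to 42.3 for Il2rb, 38.1 to 170 for Il9r and 145 to 391 for Il4ra over the 12 libraries.

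Il7r, the IL-7 receptor alpha chain (ENSMUSG00000003882, 15:9505788-9530176), ranked second in every group. It averaged 306 ± 30.3 TPM in knockout-labelled cells and 347 ± 17.5 TPM in WT cells at 20 weeks, and 164 ± 37.6 TPM in knockout-labelled cells and 205 ± 67.3 TPM in WT cells at 8 weeks. In each group all 3 libraries lay below those of Il2rg and above those of every other gene of the set.

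The IL-2 receptor chains followed. Il2ra, the high-affinity chain CD25 (ENSMUSG00000026770, 2:11642807-11693193), averaged 124 ± 29.0 TPM in knockout-labelled cells and 126 ± 19.5 TPM in WT cells at 20 weeks, and 91.7 ± 13.3 and 82.1 ± 30.8 TPM in knockout-labelled and WT cells at 8 weeks. Il2rb, the signalling chain shared with the IL-15 receptor (ENSMUSG00000068227, 15:78479256-78495271), averaged 94.7 ± 16.0 TPM in knockout-labelled cells and 85.4 ± 12.5 TPM in WT cells at 20 weeks, and 82.5 ± 10.7 and 87.7 ± 11.1 TPM in knockout-labelled and WT cells at 8 weeks. Il2rb is also a known marker of NK cells. The summed NK and ILC1 markers were 78.0 to 112 TPM in knockout-labelled and 48.9 to 83.0 TPM in WT cells at 20 weeks, and 91.0 to 307 and 65.1 to 317 TPM in knockout-labelled and WT cells at 8 weeks. Nearly all of this sum was Gzma, a granule protease, at 47.2 to 313 TPM. The defining NK genes Ncr1, Klrb1c, Eomes and Klra8 were each under 1 TPM in every library and Prf1 was at most 5.28 TPM. The part of NK cells in the Il2rb level was not tested.

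The IL-25 receptor chains were unequal at the gene level. Il17rb, the chain that binds IL-25 (ENSMUSG00000015966, 14:29996135-30008896), averaged 91.6 ± 13.6 TPM in knockout-labelled cells and 87.1 ± 9.13 TPM in WT cells at 20 weeks, and 75.5 ± 13.4 and 86.0 ± 11.3 TPM in knockout-labelled and WT cells at 8 weeks. Its co-receptor Il17ra (ENSMUSG00000002897, 6:120463247-120487559), which serves several IL-17 family cytokines, averaged 14.9 ± 3.48 TPM in knockout-labelled cells and 11 ± 1.2 TPM in WT cells at 20 weeks, and 11.3 ± 0.937 and 12.3 ± 1.5 TPM in knockout-labelled and WT cells at 8 weeks. The ratio of Il17rb to Il17ra was 4.76 to 9.68 in TPM over the 12 libraries. This Il17rb level is mostly that of transcripts not annotated as coding, as described below. The coding transcript Il17rb-201 alone was at 9.90 to 22.0 TPM, against 9.775 to 18.9 TPM for Il17ra. The libraries of Il17rb and Il2rb overlapped in every group, so these neighbours in the order did not differ beyond their spread. Il2ra overlapped them too, except in WT cells at 20 weeks, where its 3 libraries were higher.

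Il9r, the IL-9 receptor (ENSMUSG00000020279, 11:32187541-32200279), came next at 49.4 ± 4.80 TPM in knockout-labelled cells and 45.6 ± 5.93 TPM in WT cells at 20 weeks, and 38.0 ± 18.5 and 36.0 ± 6.97 TPM in knockout-labelled and WT cells at 8 weeks. Its lowest value, 17.3 TPM, was in knockout-labelled replicate 3 of 8 weeks, a library that stands apart. Il4ra, the IL-4 receptor alpha chain also used by IL-13 (ENSMUSG00000030748, 7:125552120-125579474), averaged 18.1 ± 3.07 TPM in knockout-labelled cells and 14.1 ± 4.76 TPM in WT cells at 20 weeks, and 11.4 ± 3.39 and 11.5 ± 2.03 TPM in knockout-labelled and WT cells at 8 weeks. Its libraries overlapped those of Il17ra in every group, and those of Kit in both groups of 20 weeks.

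Kit (ENSMUSG00000005672, 5:75574916-75656722) averaged 22.4 ± 4.0 TPM in knockout-labelled cells and 23.4 ± 5.0 TPM in WT cells at 20 weeks, and 19.2 ± 3.01 and 21.2 ± 4.07 TPM in knockout-labelled and WT cells at 8 weeks. Kit also marks mast cells. Summed over 8 mast cell and basophil genes, TPM was 16.2 to 22.8 in knockout-labelled and 13.3 to 17.4 in WT cells at 20 weeks, and 8.31 to 12.3 in knockout-labelled and 9.05 to 16.1 in WT cells at 8 weeks, with Cma1, a mast cell protease, listed at 0 in all 12 libraries. Most of the sum was Cpa3, at 5.95 to 20.4 TPM. The part of such cells in the Kit level was not tested.

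Crlf2, the TSLP receptor chain (ENSMUSG00000033467, 5:109554709-109558993), was last in every group and rested on 9.76 to 103 estimated reads per library. Its TPM was 2.20, 1.85 and 2.14 in knockout-labelled cells and 1.41, 1.24 and 1.32 in WT cells at 20 weeks. At 8 weeks it was 3.23, 1.83 and 0.709 in knockout-labelled cells and 2.21, 3.22 and 1.34 in WT cells. The 2 chains of the TSLP receptor were thus far apart, the TPM ratio of Il7r to Crlf2 being 37.6 to 276 over the 12 libraries.

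**Figure D1:**
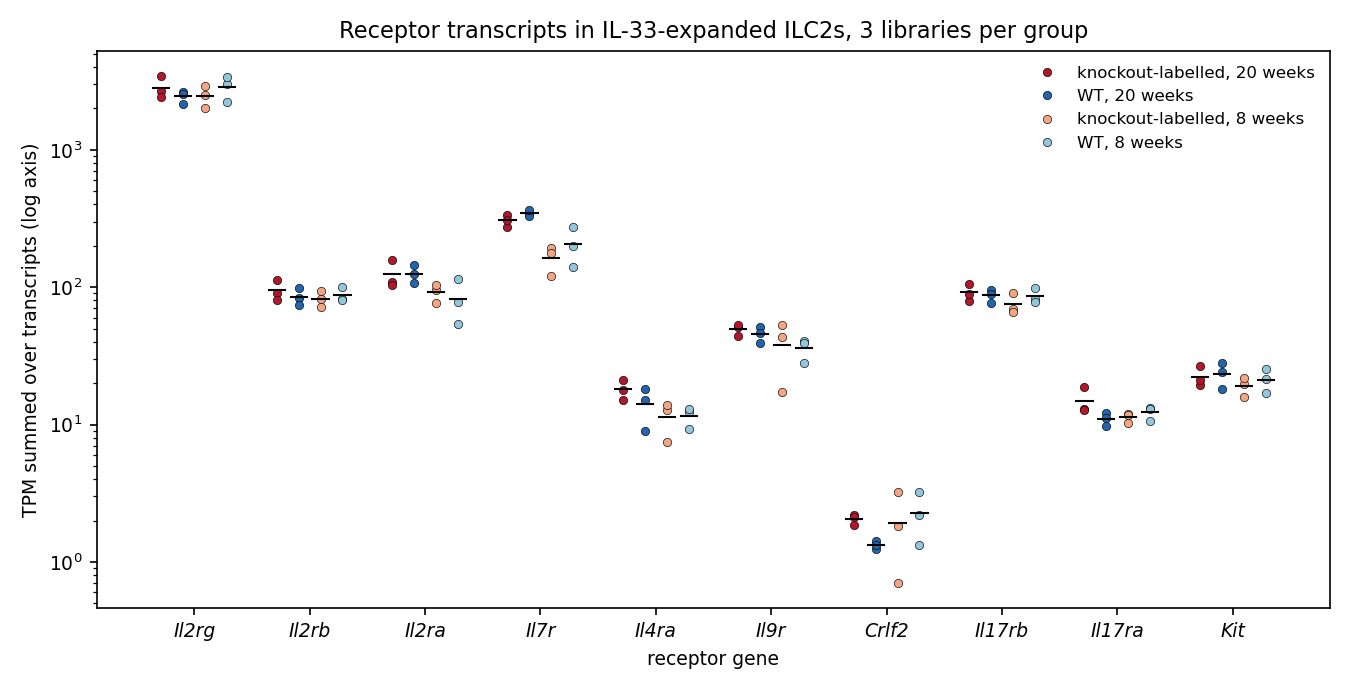
TPM of the 10 receptor genes on a log axis, 1 point per library and a bar at the mean of each group of 3, with knockout-labelled (KO) and WT cells at 20 weeks followed by those at 8 weeks. Il2rg lies at 2018 to 3441 TPM and Crlf2 at 0.709 to 3.23 TPM, while the 4 groups of each gene lie close together on this scale.

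Whether development without Rag1 goes with a different receptor level was read from knockout-labelled against WT cells with edgeR's quasi-likelihood test over 14431 genes, where a gene was called if its p after Benjamini-Hochberg adjustment was under 0.05. No receptor gene passed. At 20 weeks 0 of 10 were called, where 0.0554% of all genes were, and 0 of 10 had an unadjusted p under 0.05, where 2.08% of all genes did. At 8 weeks it was again 0 of 10 called beside 0.201% of all genes, and 0 of 10 at an unadjusted p under 0.05 beside 3.62%. Averaged over both times, 0 of 10 were called beside 0.222% of all genes, with 0 at an unadjusted p under 0.05 beside 3.71%. DESeq2 also called 0 of 10 in each of these comparisons, where it called 0.222%, 0.521% and 0.528% of the genes with an adjusted p. The same count of 0 came from limma-voom, where 0.0485%, 0.187% and 0.215% of all genes were called.

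The intervals show how large a difference these libraries leave room for. At 20 weeks the median log2 fold change of the 10 genes, knockout-labelled over WT, was 0.06, beside -0.01 over all genes tested, and 7 of 10 were positive. Apart from Crlf2, the 95% intervals of the log2 fold changes lay between -0.77 (Il7r) and 0.90 (Il4ra). At 8 weeks the median was -0.15, beside 0.02 over all genes, and 8 of 10 were negative, with intervals from -0.83 (Il7r) to 0.70 (Il2ra) apart from Crlf2. This direction rests on the 2 libraries that stand apart, both of 8 weeks. Without them the median was 0.03 and 6 of 10 were positive. Crlf2 had the widest intervals, -0.56 to 1.70 at 20 weeks and -1.32 to 0.93 at 8 weeks.

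For comparisons between groups, values are CPM, estimated reads scaled to library size by TMM factors. Il7r had 732, 629 and 730 CPM in knockout-labelled cells at 20 weeks, against 816, 741 and 925 CPM in WT cells. All 3 WT libraries were above all 3 knockout-labelled ones, by a small margin at the nearest pair. The log2 fold change was -0.25 (SE 0.24, edgeR adjusted p = 1). At 8 weeks Il7r had 339, 521 and 489 CPM in knockout-labelled cells and 529, 404 and 735 CPM in WT cells. Here the groups overlapped, and the log2 fold change was -0.31 (SE 0.24, edgeR adjusted p = 1). Without both libraries that stand apart it was -0.55 (adjusted p = 0.537).

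Crlf2 was the other gene whose libraries did not overlap at 20 weeks, with 1.97, 1.73 and 2.09 CPM in knockout-labelled cells against 1.35, 1.15 and 1.38 CPM in WT cells, a log2 fold change of 0.57 (SE 0.52, edgeR adjusted p = 1). Groups without overlap were found for 2 of 10 receptor genes at 20 weeks and for 11.4% of all genes tested. At 8 weeks they were found for 0 of 10 receptor genes and 5.63% of all genes. Crlf2 at 8 weeks had 3.69, 2.03 and 0.796 CPM in knockout-labelled cells and 2.39, 3.80 and 1.47 CPM in WT cells, and the lowest value was again that of knockout-labelled replicate 3. The log2 fold change at 8 weeks was -0.19 (SE 0.52) with all libraries and 0.57 (edgeR adjusted p = 0.764) without both libraries that stand apart, so its direction rests on them.

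Il17ra had the smallest genotype p of the 10 genes at 20 weeks. It had 35.1, 35.9 and 55.7 CPM in knockout-labelled cells and 28.3, 34.0 and 35.1 CPM in WT cells. The highest knockout-labelled library stood above the rest, and the groups overlapped. The log2 fold change was 0.38 (SE 0.22, unadjusted p = 0.105, edgeR adjusted p = 1). The IL-2 receptor chains were close between genotypes at both times. For Il2ra the log2 fold change was -0.06 (SE 0.25) at 20 weeks and 0.15 (SE 0.25) at 8 weeks, the last being -0.14 without both libraries that stand apart, and for Il2rb it was 0.08 (SE 0.18) and -0.09 (SE 0.18).

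Il9r and Il17rb had the log2 fold changes nearest 0 at 20 weeks, 0.03 (SE 0.26) and 0.01 (SE 0.19). Il9r had 112, 119 and 114 CPM in knockout-labelled cells and 119, 112 and 107 CPM in WT cells, so the groups lay on top of each other. Kit had 88.7, 63.4 and 65.3 CPM in knockout-labelled cells and 95.4, 84.2 and 72.5 CPM in WT cells at 20 weeks, a log2 fold change of -0.21 (SE 0.22). At 8 weeks Kit had a log2 fold change of -0.18 (SE 0.22), with overlapping groups, and 0.01 without both libraries that stand apart.

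The genotype by time interaction, which asks whether the genotype difference at 20 weeks was another than at 8 weeks, called 0 of 10 genes, where 0.097% of all genes were called. None had an unadjusted p under 0.05 (2.18% of all genes), and DESeq2 and limma-voom called 0 of 10 too (0.243% and 0.0762% of all genes). Values ran from -0.21 (SE 0.36) for Il2ra to 0.76 (SE 0.73) for Crlf2 on the log2 scale. Both ends rest on the libraries that stand apart, since without them the interaction was 0.09 for Il2ra and 0.02 for Crlf2.

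**Figure D2:**
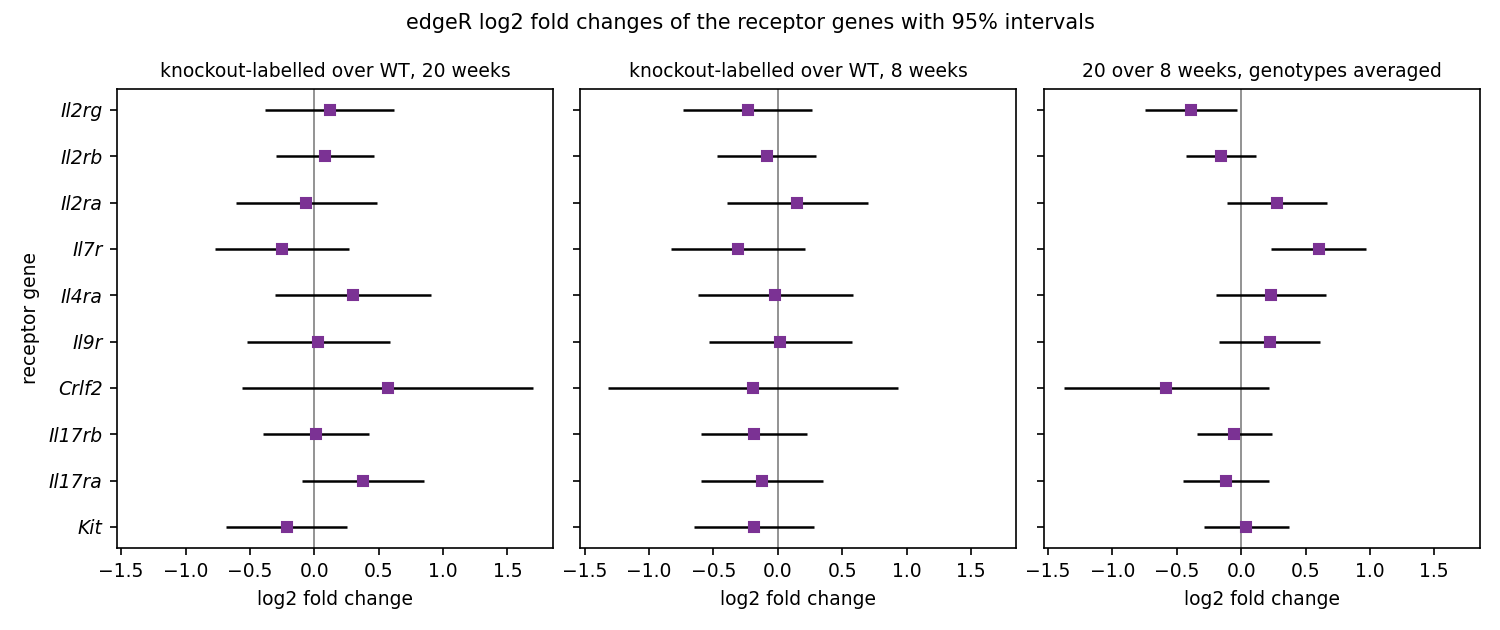
edgeR log2 fold changes of the 10 receptor genes with their 95% intervals, for knockout-labelled over WT cells at 20 weeks (left) and 8 weeks (middle) and for 20 over 8 weeks averaged over genotypes (right). Every genotype interval spans 0, and in the right panel the Il7r interval runs from 0.23 to 0.97 and the Il2rg interval from -0.74 to -0.03, while no gene passed the adjusted threshold.

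Time after transplant was compared within each genotype, and these comparisons share their libraries with those of genotype. In knockout-labelled cells 0 of 10 receptor genes were called beside 0.0624% of all genes, and 1 of 10, Il7r, had an unadjusted p under 0.05 beside 8.33% of all genes. In WT cells 0 of 10 were called beside 0.513% of all genes, and 2 of 10, Il7r and Il2rg, had an unadjusted p under 0.05 beside 13.3%. Groups did not overlap for 1 of 10 genes in knockout-labelled cells (16.4% of all genes) and 3 of 10 in WT cells (19.3%), shares near those of all genes. DESeq2 and limma-voom called 0 of 10 in knockout-labelled cells (1.04% and 0.0624% of all genes) and in WT cells (3.67% and 0.471%).

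In WT cells the smallest p of the set over time was that of Il2rg (edgeR unadjusted p = 0.0304), described below. In knockout-labelled cells it was that of Il7r. Its 3 knockout-labelled libraries of 20 weeks (629 to 732 CPM) were above the 3 of 8 weeks (339 to 521 CPM), a log2 fold change of 0.63 (SE 0.24, unadjusted p = 0.0213, edgeR adjusted p = 0.520). Its WT libraries of 20 weeks (741 to 925 CPM) were above those of 8 weeks (404 to 735 CPM), with a log2 fold change of 0.57 (SE 0.24, unadjusted p = 0.0335, edgeR adjusted p = 0.336). The interaction of Il7r was 0.06 (SE 0.34), with a 95% interval of -0.68 to 0.79.

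Averaging time over both genotypes was a contrast added after the values were seen. It gave Il7r a log2 fold change of 0.60 (SE 0.17, 95% interval 0.23 to 0.97), a 1.52-fold difference, with an edgeR adjusted p of 0.0791. The gene thus did not pass, in a contrast that called 2.9% of all genes. It did pass in DESeq2 (0.59, adjusted p = 0.0150), which called 8.52% of all genes, and in edgeR without WT replicate 3 of 8 weeks (0.73, adjusted p = 0.0240), the 8-week library with the most Il7r. For the fit without that library the share of all genes called is not given. In limma-voom, which called 3.53% of all genes, it was 0.63 (adjusted p = 0.0553) and did not pass. Without both libraries that stand apart it was 0.55 (adjusted p = 0.0532). Over 22 alternatives the log2 fold change ran from 0.48 to 0.73. The value of 0.48 came with the thread number of the quantification run as a covariate (adjusted p = 0.177). T cells also carry Il7r. The summed T cell markers were 57.6 to 69.7 TPM in knockout-labelled cells at 20 weeks and 42.5 to 75.3 TPM at 8 weeks, and 75.3 to 86.3 TPM in WT cells at 20 weeks and 75.3 to 116 TPM at 8 weeks. Most of this sum was Cd3g, at 37.7 to 101 TPM, while Cd3e was at 0 to 3.33 TPM and Cd4 and Cd8a at no more than 1.13 TPM, and the part of T cells in the Il7r level was not tested.

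Il2rg went the other way in WT cells, with 2579, 2572 and 2571 CPM at 20 weeks against 3628, 5027 and 2771 CPM at 8 weeks. The libraries of 20 weeks lay within a few CPM of each other and below all of 8 weeks, whose highest was the library that stands apart. The log2 fold change was -0.57 (SE 0.23, edgeR adjusted p = 0.328), and -0.31 (adjusted p = 0.383) without both libraries that stand apart. In knockout-labelled cells Il2rg had 3154, 2683 and 2552 CPM at 20 weeks and 2614, 3376 and 3737 CPM at 8 weeks. These groups overlapped, at -0.21 (SE 0.23) on the log2 scale and -0.09 without both libraries that stand apart. Mean TPM in knockout-labelled cells was instead higher at 20 weeks (2838 ± 537) than at 8 weeks (2482 ± 456), so the direction depended on the scale. On the TPM scale the mean ratio of Il2rg to Il7r was 9.25 ± 1.22 in knockout-labelled cells at 20 weeks and 15.4 ± 2.06 at 8 weeks, and 7.10 ± 1.04 in WT cells at 20 weeks and 15.9 ± 8.15 at 8 weeks (SD, n = 3 each).

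Crlf2 was the third gene whose WT libraries did not overlap in time, at 1.35, 1.15 and 1.38 CPM at 20 weeks against 2.39, 3.80 and 1.47 CPM at 8 weeks, a log2 fold change of -0.96 (SE 0.53, edgeR adjusted p = 0.468). In knockout-labelled cells its value was -0.20 (SE 0.51). Without both libraries that stand apart the values were -0.57 in knockout-labelled and -0.59 in WT cells. Il2ra had log2 fold changes of 0.17 (SE 0.25) in knockout-labelled and 0.38 (SE 0.25) in WT cells, with overlap in both, and 0.27 and 0.18 without those libraries. The time values of Il2rb, Il9r, Il4ra, Il17rb, Il17ra and Kit lay between -0.37 and 0.39 in both genotypes, with edgeR adjusted p-values of 0.505 to 0.992.

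**Figure D3:**
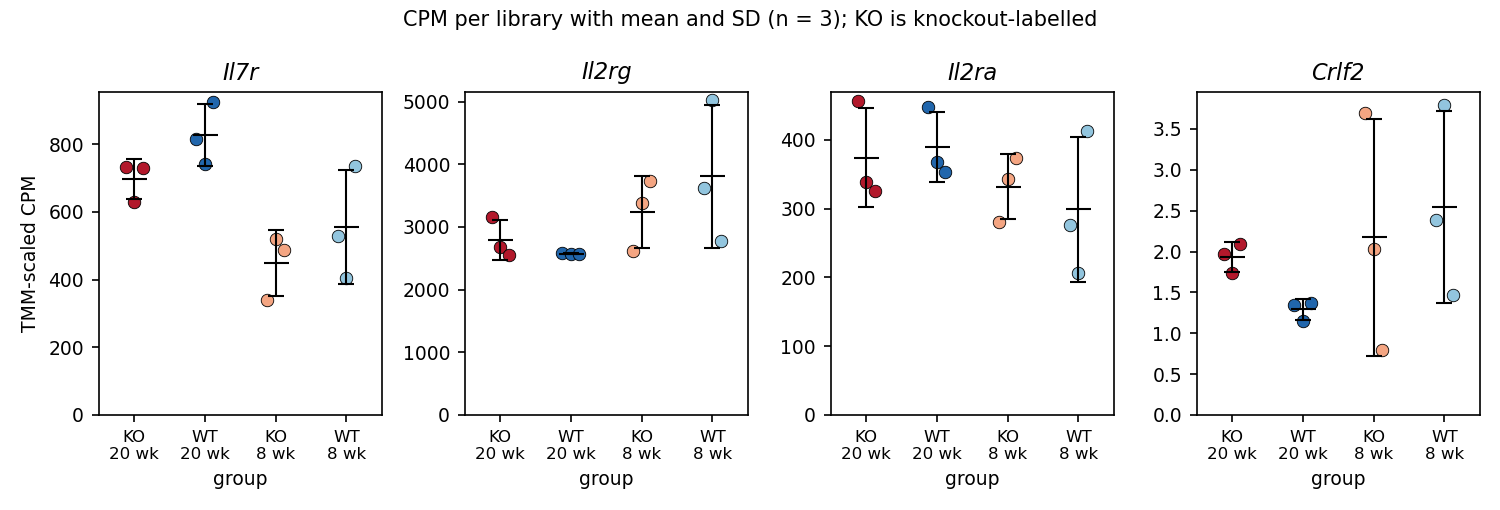
TMM-scaled CPM of Il7r, Il2rg, Il2ra and Crlf2 in each library, with the mean and SD of each group of 3, knockout-labelled (KO) and WT cells at 20 weeks followed by those at 8 weeks. Il7r lies at 629 to 925 CPM in the libraries of 20 weeks and at 339 to 735 CPM in those of 8 weeks, and Crlf2 has its widest spread at 8 weeks.

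Several of the receptors are spliced into forms that differ at a junction, and the deposited values are per transcript. Each pair of forms shown here also differs elsewhere in length. The sequences shown are only those at the junction. They are read from the GENCODE M21 transcripts on GRCm38, with the bases that only the first of each pair holds in capitals. In mice and humans, Kit occurs in forms with and without a short insert just outside the membrane, set by the choice of splice donor at the end of exon 9. Kit-201 holds 12 bases more than Kit-204 there, at 5:75639147-75639158 on the plus strand. Kit-204 is still the longer transcript, at 5241 bases against 5214 for Kit-201, so these forms differ elsewhere too.
Kit-201: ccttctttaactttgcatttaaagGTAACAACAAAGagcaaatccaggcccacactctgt
Kit-204: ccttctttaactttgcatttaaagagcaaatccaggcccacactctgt

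Il2rg-203 lacks the 97 bases of exon 6 (X:101265630-101265726, minus strand), which encode the membrane-spanning part of the gamma chain. In mouse T cells, skipping of this exon is known to give a secreted gamma chain.
Il2rg-201: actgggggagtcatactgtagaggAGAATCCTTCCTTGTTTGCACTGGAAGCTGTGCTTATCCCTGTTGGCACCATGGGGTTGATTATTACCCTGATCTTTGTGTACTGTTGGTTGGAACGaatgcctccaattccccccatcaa
Il2rg-203: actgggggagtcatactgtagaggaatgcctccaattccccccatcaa

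Il17rb-203 has 4 more bases than the coding Il17rb-201 at the end of exon 4 (14:30004272-30004275, minus strand) and is annotated as a target of nonsense-mediated decay, the pathway that degrades messages with an early stop codon.
Il17rb-203: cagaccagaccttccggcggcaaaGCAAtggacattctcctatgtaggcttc
Il17rb-201: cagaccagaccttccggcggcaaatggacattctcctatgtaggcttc

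Il9r-202 has 3 more bases than Il9r-205 at the start of exon 6 (11:32193379-32193381, minus strand).
Il9r-202: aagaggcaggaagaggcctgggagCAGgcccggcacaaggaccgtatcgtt
Il9r-205: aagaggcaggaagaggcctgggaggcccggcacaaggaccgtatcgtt

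How well these forms can be separated depends on the 20-base words that only one of them holds. Kit-201 had 27 such words and Kit-204 had 54, Il2rg-203 had 17 and Il9r-202 had 0, counted against the other transcripts of the gene. Among 3 of the 4 Il17rb transcripts in the files, Il17rb-203 had 48, Il17rb-204 had 636 and Il17rb-201 had 105. The coding Il17rb-202 was left out, as its length in the files (2061 bases, that of Il17rb-201) is not that of GENCODE M21, so words of Il17rb-201 may be shared with it. It was listed at 0 in every library. The Il9r-202 estimate therefore had no word of its own to rest on.

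Of the TPM of Kit over all libraries, Kit-201 held 66.7%, Kit-204 held 18.6% and Kit-205, which retains an intron, held 12.3%. The share of Kit-204 in the sum of Kit-201 and Kit-204 was 9.67%, 11.1% and 11% in knockout-labelled cells at 20 weeks, against 27.6%, 56.2% and 28.2% in WT cells. All 3 knockout-labelled libraries were below all 3 WT libraries. The means differed by -26.7 percentage points (two-sided exact permutation p = 0.1, the smallest that 3 against 3 can give, 0.4 after Benjamini-Hochberg adjustment over 16 share comparisons). At 8 weeks the share was 30.9%, 21.1% and 0% in knockout-labelled cells and 22.5%, 27.4% and 4.22% in WT cells, which overlapped (exact permutation p = 0.9). Between the times, the WT libraries of 20 weeks were all above those of 8 weeks (exact permutation p = 0.1, adjusted 0.4) and the knockout-labelled ones overlapped. The 3 knockout-labelled libraries of 20 weeks were also the only group quantified wholly with 24 threads, and its part in the share was not tested. A fit of all 35236 transcripts tested with edgeR did not call Kit-204 at 20 weeks (log2 fold change -2.06, SE 1.25, adjusted p = 1).

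The share of Il2rg-203 in the sum of Il2rg-201 and Il2rg-203 was 24.7%, 18.9% and 16.2% in knockout-labelled cells at 20 weeks, against 13.0%, 2.53% and 11.4% at 8 weeks. All 3 libraries of 20 weeks were above those of 8 weeks, a difference of 11 percentage points (two-sided exact permutation p = 0.1, the smallest possible, adjusted 0.4). In WT cells it was 25.1%, 17.4% and 8.87% at 20 weeks and 14.9%, 0.208% and 10.1% at 8 weeks, which overlapped (exact permutation p = 0.3, adjusted 0.8). Genotypes overlapped at both times. The transcript fit did not call Il2rg-203 over time in knockout-labelled cells (log2 fold change 1.09, SE 1.02, edgeR unadjusted p = 0.310). The limit on thread number given for Kit-204 holds here too. The Il9r-202 share in WT cells was lower in all libraries of 20 weeks than in those of 8 weeks (means 30.7% and 40.1%, exact permutation p = 0.1, adjusted 0.4). As given above, the Il9r-202 estimate had no 20-base word of its own. The transcript fit did not call Il9r-202 over time in WT cells (log2 fold change -0.25, SE 0.68, edgeR unadjusted p = 0.715). Shares were not computed over all transcripts, so no background stands beside these.

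**Figure D4:**
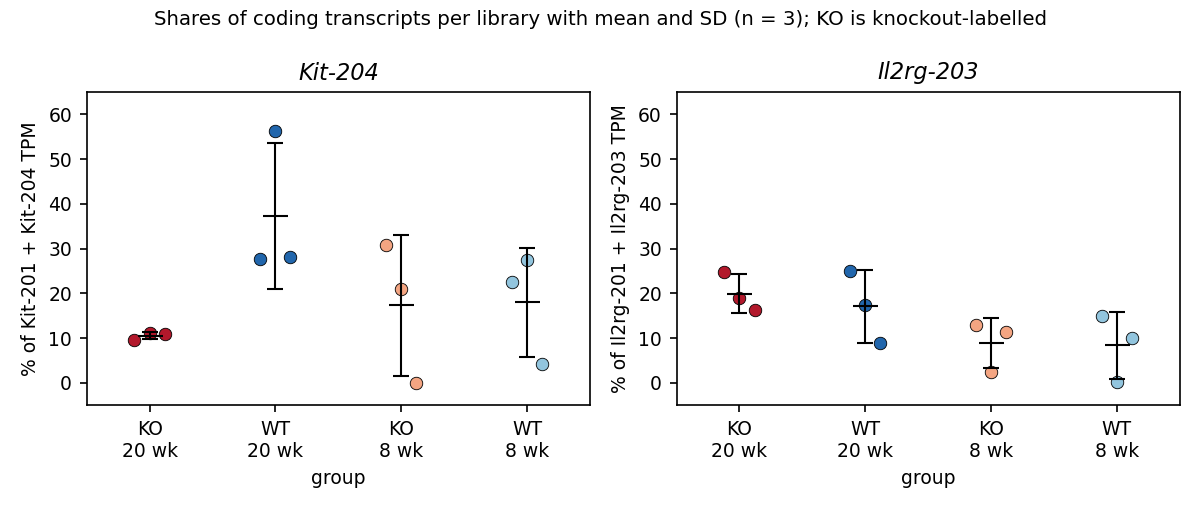
Share of Kit-204 in Kit-201 plus Kit-204 (left) and of Il2rg-203 in Il2rg-201 plus Il2rg-203 (right), in percent of TPM, per library with the mean and SD of each group of 3, knockout-labelled (KO) and WT cells at 20 weeks followed by those at 8 weeks. The knockout-labelled libraries of 20 weeks lie at 9.67% to 11.1% for Kit-204, below the WT libraries of 20 weeks at 27.6% to 56.2%.

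For Il17rb, the transcripts annotated for nonsense-mediated decay took most of the level, with 52.7% of TPM for Il17rb-203 and 27.7% for Il17rb-204, while the coding Il17rb-201 held 19.6%. The gene level of Il17rb given above, and its ratio to Il17ra, therefore rest mostly on forms with this annotation. The share of Il17rb-201 among these 3 was 20.9 ± 1.74% in knockout-labelled cells and 18.8 ± 3.87% in WT cells at 20 weeks, and 17.4 ± 6.01% and 21.1 ± 0.434% in knockout-labelled and WT cells at 8 weeks (SD, n = 3 each). Genotypes overlapped at both times.

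Transcripts holding at least 10% of their gene's TPM numbered 16 over the 10 genes. In the transcript fit 0 of 16 were called at 20 weeks (0.0114% of all transcripts), 0 at 8 weeks (0.0454%), 0 averaged over times (0.0596%) and 0 in the interaction (0.0199%). Over time 0 of 16 were called in knockout-labelled cells (0.0114%), in WT cells (0.131%) and averaged over genotypes (0.15%). At an unadjusted p under 0.05 there were 1 of 16 at 20 weeks (2.17% of all transcripts), 0 at 8 weeks (3.58%), 0 averaged over times (3.65%) and 0 in the interaction (2.69%). Over time there were 1 in knockout-labelled cells (5.58%), 3 in WT cells (9.37%) and 6 averaged over genotypes (13.2%). The 1 at 20 weeks was Kit-205, with a log2 fold change of 1.74 (SE 0.65, unadjusted p = 0.0228, edgeR adjusted p = 1). Of the 6 over time averaged over genotypes, Il7r-201 (0.60), Il9r-205 (0.41) and Il17rb-204 (0.46) were higher at 20 weeks on the log2 scale. Lower were Il2rg-201 (-0.48), Il17rb-203 (-0.40) and Kit-205 (-1.24). The edgeR adjusted p-values of these 6 were 0.169 to 0.366.

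The wider pathway was read from a list of 53 genes, comprising 13 ligands, 11 other receptors, 10 kinases and adaptors, 11 STATs and brakes, and 8 targets, of which 45 could be tested. In the 4 genotype and interaction comparisons and in time within each genotype, 0 of 45 were called by edgeR. Unadjusted p-values under 0.05 numbered 3 of 45 at 20 weeks (2.08% of all genes), 5 at 8 weeks (3.62%), 6 averaged over times (3.71%) and 1 in the interaction (2.18%), then 5 over time in knockout-labelled cells (8.33%) and 7 in WT cells (13.3%). DESeq2 called 1 averaged over times (Il18r1, beside 0.528% of all genes), 2 over time in knockout-labelled cells (Il13 and Il17a, beside 1.04%) and 1 in WT cells (Bcl2, beside 3.67%).

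Among ligands, Kitl, the gene of stem cell factor, had 13.7, 6.97 and 5.76 CPM in knockout-labelled cells at 20 weeks, against 2.23, 4.07 and 2.72 CPM in WT cells. At 8 weeks it had 5.27, 5.16 and 7.17 CPM in knockout-labelled cells and 2.24, 0.928 and 4.87 CPM in WT cells. The knockout-labelled libraries were above the WT libraries at both times. Over both times together 0.36% of all genes showed no overlap between genotypes, and no receptor gene did. With both times averaged, Kitl had a log2 fold change of 1.34 (SE 0.37, edgeR adjusted p = 0.549) and did not pass. Stroma and endothelium are known sources of stem cell factor. Of their 5 markers, Cdh5, Col1a1 and Pdpn were each at or below 0.310 TPM and Ccl21a at or below 1.69 TPM in every library, so that the summed 51.2 to 93.4 TPM was nearly all Pecam1, which leukocytes also express. The part of such cells in the Kitl level was not tested.

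Il2 had 0.629, 0.792 and 0.241 CPM in knockout-labelled cells at 8 weeks, against 1.56, 2.66 and 2.26 CPM in WT cells, with no overlap and a log2 fold change of -1.91 (SE 0.65, edgeR adjusted p = 1). Il33 was at or below 1.94 CPM in every library and did not pass at 8 weeks or averaged over times (adjusted p = 0.617 and 0.516). Of the other receptors, Il18r1, a chain of the IL-18 receptor, was at -0.80 on the log2 scale averaged over times (SE 0.17, edgeR adjusted p = 0.134). Il13, the effector cytokine that shares Il4ra with IL-4, had an interaction of -1.11 (SE 0.46), Cbl, a ubiquitin ligase for tyrosine kinases, one of -0.87 (SE 0.42), and the STAT gene Stat5a was at 0.44 (SE 0.16) over time in WT cells, with edgeR adjusted p-values of 1, 1 and 0.264.

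In the added contrast of time averaged over genotypes, 3 of 45 were called, 1 higher at 20 weeks (0.977% of all genes) and 2 lower (1.93%). Bcl2, the survival gene that IL-7 receptor signalling is known to maintain, rose at 20 weeks. It had 179, 175 and 179 CPM in knockout-labelled and 189, 192 and 184 CPM in WT cells at 20 weeks, against 99.8, 139 and 98.9 CPM in knockout-labelled and 100.4, 135 and 107 CPM in WT cells at 8 weeks. The libraries of 20 weeks lay above all of 8 weeks, as was the case in either direction for 4.09% of all genes and for 0 of the 10 receptor genes. The log2 fold change was 0.69 (SE 0.13, edgeR adjusted p = 0.0199). Il13 fell, at 7.09 to 9.59 CPM in knockout-labelled and 10.1 to 11.3 CPM in WT cells at 20 weeks, against 12.8 to 36.3 CPM in knockout-labelled and 11.4 to 17.0 CPM in WT cells at 8 weeks (log2 fold change -0.98, SE 0.23, edgeR adjusted p = 0.0439). Il17a, a cytokine that signals through Il17ra, fell as well (edgeR adjusted p = 0.0187). Its CPM was 0 in each of the knockout-labelled libraries and 0 to 0.116 in WT cells at 20 weeks, against 0.235 to 0.920 CPM in knockout-labelled and 0.198 to 1.42 CPM in WT cells at 8 weeks, and its fitted fold change depends on the prior count and is not given. These calls were lost in 8 (Bcl2), 12 (Il13) and 6 (Il17a) of 22 alternatives. The fit with the replicate number as a block called Bcl2 and Il17a and not Il13. None of the 3 was called without any 1 of the 3 knockout-labelled libraries of 20 weeks or without WT replicate 1 of either time, and 1 was called without WT replicate 2 or replicate 3 of 20 weeks.

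Ligands and receptors that could not be tested were Il9, Il21, Il25, Tslp, Il13ra1, Il13ra2, Il17rc and Il17re. Il9, Il21, Il25, Il13ra1 and Il17rc were listed at 0 TPM in all 12 libraries, and Tslp, Il13ra2 and Il17re were at no more than 0.732 TPM. Among other gamma chain receptors, Il15ra, the IL-15 receptor alpha chain, was at 10.9 to 34.2 TPM and Il21r, the IL-21 receptor, at 2.80 to 8.84 TPM. The gamma chain's kinase Jak3 was at 3.12 to 17.7 TPM, and Jak1, which binds the partner chains, at 84.1 to 241 TPM. Il1rl1, the IL-33 receptor chain, was at 283 to 336 CPM in the libraries of 20 weeks and 167 to 297 CPM in those of 8 weeks. These overlapped with genotypes pooled, and Il1rl1 was not called averaged over genotypes (log2 fold change 0.47, SE 0.15, edgeR adjusted p = 0.114). Within each genotype its libraries of 20 weeks were above those of 8 weeks. The log2 fold change was 0.44 in knockout-labelled and 0.51 in WT cells (SE 0.21 each, edgeR adjusted p = 0.626 and 0.338). Groups did not overlap in time for 16.4% and 19.3% of all genes.

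The receptor genes that varied most over the 12 libraries were Crlf2, Il7r and Il4ra, with an SD of log2 CPM of 0.61, 0.44 and 0.37. For each, the likest genes were taken by the root-mean-square difference of log2 CPM centred on its mean over the 12 libraries, among 14421 genes. Nearest to Il7r were Ahrr, the repressor of the aryl hydrocarbon receptor, at 0.14, the ubiquitin ligase Ube4a at 0.16 and Chic2 at 0.17, where the median gene was at 0.60. Nearest to Crlf2 were Mettl22 at 0.25, Slc2a6 at 0.25 and Tmem63b at 0.27, where the median gene was at 0.76. Nearest to Il4ra were Neurl3, Gnpat and Aacs, each at 0.13, where the median gene was at 0.57. Il2rb and Il17rb varied least, with an SD of log2 CPM of 0.17 and 0.19.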

How the data were processed

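RNA sequencing values of 12 libraries were used, each in the group its title gives. Per the file headers, the authors ran sailfish 0.6.3 with 20-base k-mers on Ensembl release 76, and deposited an expected count (reads estimated per transcript) with a TPM for every transcript. The aligner STAR 2.0.4b and the counter featureCounts 1.4.5 of Subread, beside bcl2fastq, are named in the submitters' processing notes without a role. A k-mer method divides reads shared by transcripts by its model, and no strand setting is given. Runs used 24 threads for all 3 knockout-labelled libraries of 20 weeks and for 1 library of each other group, and 8 threads for the rest, per the file headers.

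Of 86127 transcripts, 83739 (97.2%) had an identifier in GENCODE M21 (GRCm38), which gave 29542 summed genes. The 2388 others, 1.01% to 1.54% of a library's reads, were left out. Estimated counts were rounded, filtered with filterByExpr, scaled by TMM and fitted in edgeR 4.0.16 (R 4.3.3) by quasi-likelihood with a mean for each of the 4 groups, for 14431 genes and 6 contrasts, with Benjamini-Hochberg adjustment over all genes of a contrast. The contrast of time averaged over genotypes and the fit of 35236 transcripts were added after the data were seen. Log2 CPM used a prior count of 2. Intervals are 95% intervals of the fit and standard errors (SE) are the log2 fold change over the square root of F. DESeq2 1.42.0, limma-voom (limma 3.58.1), other scalings and filters, length-scaled counts, left-out libraries, thread number and a replicate block were alternatives. The scripts were tested on simulated data. Estimated counts carry counting error beside the spread between libraries, which is largest for Crlf2.

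The receptor genes and the lists were chosen with earlier results of these data known. Named are all 10 receptor genes, in the pathway list the called genes and the 3 smallest p-values of each contrast, transcripts with at least 10% of their gene's TPM, and for the 3 most variable receptor genes (mean CPM of at least 1) the 3 likest genes. The other genes with values were named beside them after their values were seen.

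Replicate numbers come from the titles, which do not say what a number shares. Same-numbered libraries deviated together at 8 weeks between genotypes (correlation 0.107 to 0.226, every pair over 0.1), which meets the rule used for pairing. The main fit has no block, and its values at 8 weeks are unpaired. The blocked fit is an alternative that shares replicate effects over all 12 libraries, so it is not a paired test of 8 weeks alone. The correlation was 0.0707 to 0.117 at 20 weeks, -0.11 to -0.054 over time in knockout-labelled cells and 0.0231 to 0.147 in WT cells.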

Additional observations from a re-analysis of the deposited data

How the results depend on the processing

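Beyond the added time contrast, no alternative called any of the 10 receptor genes. Over 70 receptor log2 fold changes and 1600 alternative values, 2 were past the threshold (Il7r in the added contrast, described above), and 38 log2 fold changes, none of them called, changed sign somewhere, in 110 values. For receptor genes over time averaged over genotypes, DESeq2 called 1, and leaving out 1 library each gave 0 to 1. For the pathway list, DESeq2 called 1 averaged over times, 2 over time in knockout-labelled cells, 1 over time in WT cells and 6 in the added contrast, beside 0.528%, 1.04%, 3.67% and 8.52% of all genes. Without both libraries that stand apart, 1 was called over time in knockout-labelled cells (Il13) and 1 in WT cells (Bcl2). Leaving out 1 library each gave 0 to 1 over time in knockout-labelled cells (Il13, without replicate 3 of 8 weeks), 0 to 1 in WT cells (Il1rl1, without replicate 3 of 8 weeks) and 0 to 4 in the added contrast, which called 0 with the thread number as covariate. The shares of all genes called in the fits that left out libraries are not given, so these counts stand without a background. The causes of these changes in count were not tested. With the replicate block, 0 receptor genes were called in every comparison, Il7r was at 0.61 (adjusted p = 0.0795) in the added contrast, and the pathway count there was 2 in place of 3, Il13 being lost. It changed no receptor call. No scaling in these fits moved the median of all genes by over 0.1. Deposited TPM was not fitted as such and can differ in direction, as for Il2rg over time in knockout-labelled cells. The order of the genes by level kept 40 of 40 places with medians and with CPM per length, and 31 to 38 when 1 replicate number was left out. Depth limits Crlf2 most.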
